A study of Mus musculus with 6 samples.

Results

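The hedgehog pathway was followed through 9 of its genes in 3T3 cells, a line of immortalised mouse embryo fibroblasts, carrying either a control construct (Ctrl) or one for NNMT. NNMT, nicotinamide N-methyltransferase, methylates nicotinamide at the expense of S-adenosylmethionine. The genes were listed by name and role: the receptor Ptch1, the decoy receptor Hhip, the coreceptors Cdon and Gas1, the transducer Smo, the Gli inhibitor Sufu and the transcription factors Gli1, Gli2 and Gli3. All 9 are among the 35275 genes of the deposited table. RNA was sequenced from 3 libraries per group, and all cells spent 48 h in DMEM with its methionine held at 10 µM and with 10% dialyzed FBS. The labels give neither the construct's promoter and species nor whether the replicates of a group were separate cultures, so the p-values measure the spread between these libraries, which may be technical. Of the NNMT libraries, the table gives a number to replicates 2 and 3, and the remaining one is called the unnumbered NNMT library.

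Hedgehog ligands act by binding Patched. Without ligand, Patched keeps Smoothened (Smo) inactive, Sufu holds the Gli proteins, and Gli3 in particular is cut to a repressor. With ligand, Smo gathers in the primary cilium and full-length Gli proteins activate transcription, with Ptch1, Gli1 and Hhip among the direct targets. Gas1, Cdon and Boc, a relative of Cdon, bind ligand beside Patched, and their transcripts are known to be lowered where the pathway is active. Fibroblasts of the 3T3 type carry a primary cilium and are a standard cell for measuring responses to added ligand. The labels name no added ligand.

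Levels are given in FPKM, reads or fragments per kilobase of gene scaled to library size, a unit inferred from the values. Reads recovered from them came to between 31622612 and 39983494 per library. Differences were tested two-sided with limma on log2(FPKM + 1) over the 10882 genes averaging 1 FPKM or more, and p-values were adjusted by Benjamini-Hochberg and called under 0.05. Fold changes of low genes come out too small on this scale. Nnmt itself lay between 5.25 and 7.61 FPKM in control and between 15.03 and 18.3 in NNMT libraries (2.53-fold, limma adjusted p = 4.75e-06). The fibroblast markers Col1a1, Col1a2, Col3a1, Pdgfrb, Thy1, Vim, S100a4, Fn1, Lum and Dcn were all tested. Of these 5 rose and 4 fell (Thy1, Vim, S100a4 and Lum), 90% against 65.6% of all tested genes. Their summed level was 8141 to 8414 FPKM in control and 10330 to 11710 FPKM in NNMT libraries. Col1a1 (mean 1815 to 3624 FPKM) and Col1a2 (1914 to 3175 FPKM) weighed most in that rise, so the sum does not describe the markers as a set. The 6 epithelial markers summed to 0.0621 to 0.148 FPKM in control and 0 to 0.0226 in NNMT libraries, with Epcam, Krt18 and Cldn4 at 0 throughout. The 5 endothelial markers summed to 0.138 to 0.240 and 0.118 to 0.139 FPKM (Emcn at 0), and the 5 muscle markers to 0.132 to 0.388 and 0.561 to 0.750 FPKM (Myod1, Myog and Mymk at 0). The 5 leukocyte markers summed to 1.67 to 2.16 and 1.05 to 1.92 FPKM, most of it Cd68, with Cd3e at 0. Of the 6 cartilage and bone markers, which summed to 33.3 to 36.6 and 36.4 to 41.1 FPKM, Sox9 and Runx2 were expressed and the other 4 stayed below 1 FPKM. The groups differed widely, and some chromosomes moved as a whole: X-linked genes had a median log2 fold change of -0.70, and the medians were -0.23 on chromosome 4, 0.29 on chromosome 16 and 2.84 for the 7 tested genes of Y. Of the 338 tested genes of X, 305 were called lower and 8 higher, and all 7 of Y were called higher. None of the 9 genes lies on X, Y, 4 or 16. An effect of NNMT and any other difference between the cells of the 2 groups cannot be told apart in this design.

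Of the 8 members tested, 6 changed: Cdon, Gas1, Gli3 and Sufu rose, and Ptch1 and Smo fell. Gli1 was lower in every NNMT library and missed the threshold (adjusted p = 0.0506), Gli2 did not pass, and Hhip was too low to test. These 6 of 8 are near the background, since 65.6% of all tested genes changed in this comparison (35% higher and 30.6% lower). The median log2 fold change of the 8 was 0.06, against 0.03 for all tested genes. The groups did not overlap for 6 of the 8, Gas1 and Gli2 being the exceptions, against 69.9% of all tested genes. Of the 6, 3 were higher and 3 lower in NNMT libraries, against 37.2% and 32.7% of all tested genes. The exact permutation p (two-sided) of each was 0.1, and 3 libraries against 3 cannot give a smaller one. With limma-voom on the recovered reads 7 of the 8 changed, Gli1 included, against 66.1% of all tested genes.

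**Figure D1:**
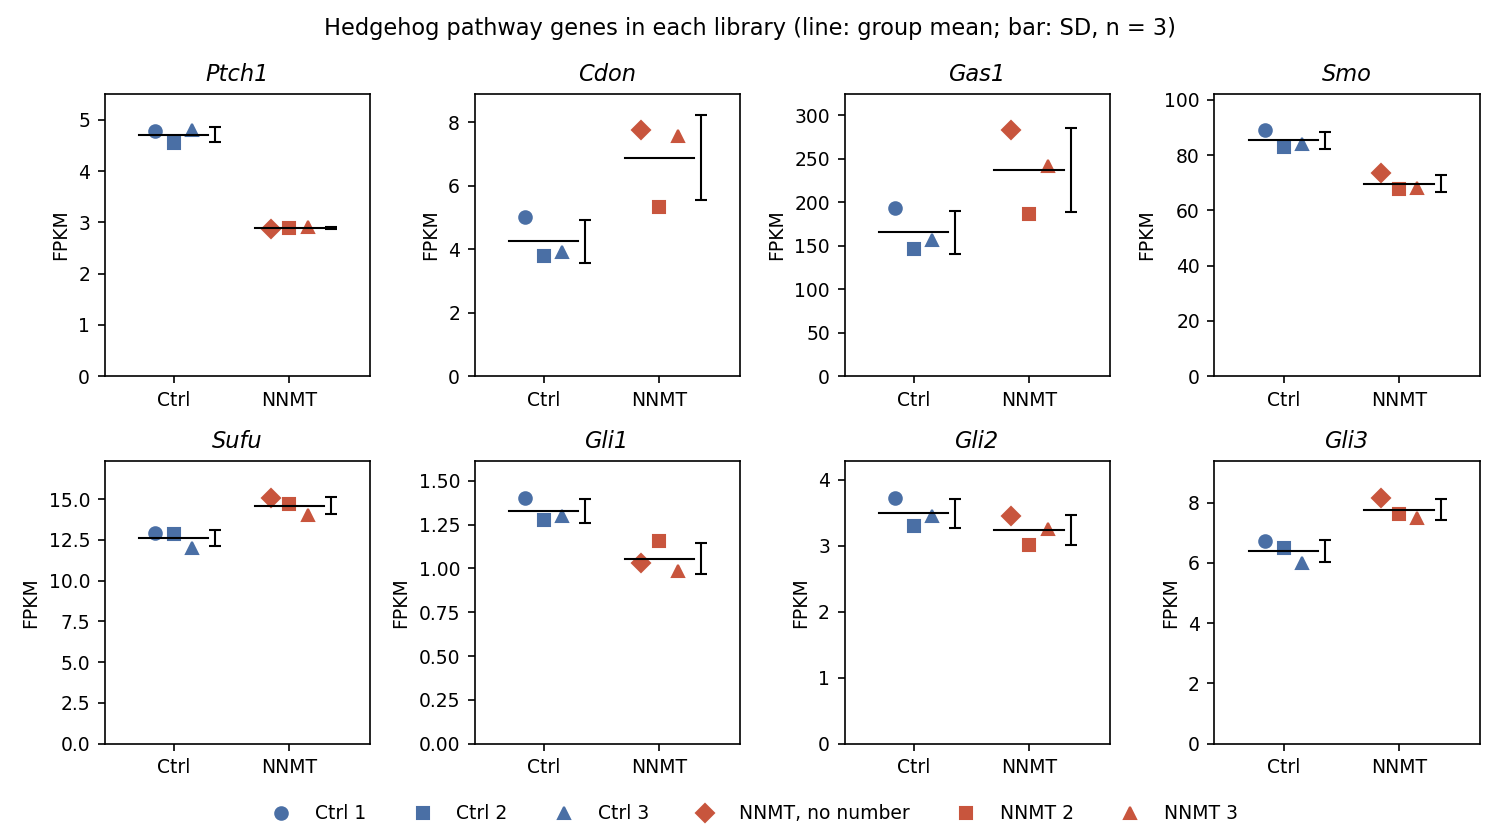
FPKM (vertical axes, from 0) of the 8 tested hedgehog genes in each library, with the group mean as a line and the SD as a bar (n = 3). The NNMT libraries lie below all controls for Ptch1, Smo and Gli1 and above them for Cdon, Sufu and Gli3, and the groups overlap for Gas1 and Gli2.

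Ptch1, the receptor and a direct target of the pathway, fell and was the member that fell furthest. Control replicates 1, 2 and 3 had 4.79, 4.55 and 4.80 FPKM. The NNMT values were 2.87 FPKM (unnumbered library), 2.89 (replicate 2) and 2.92 (replicate 3). The 3 NNMT libraries were nearly equal and far below the controls. The means were 4.71 ± 0.143 and 2.89 ± 0.0247 (SD, n = 3), a 1.63-fold difference resting on 2118 control and 1389 NNMT reads. On the log2 scale this was -0.55 (SE 0.0574, limma adjusted p = 1.5e-05), and 7.8% of tested genes lay at or below it. Its coefficient of variation between libraries was 3.03% in control and 0.85% in NNMT cells, against medians of 4.33% and 6.05% over all tested genes. The NNMT libraries had 494, 439 and 456 reads, and counting error alone would spread such counts by more than 0.85%. The closeness of the NNMT values is therefore no measure of how steady the gene is. The gene (ENSMUSG00000021466) spans 63508328 to 63573598 on the minus strand of chromosome 13 in GRCm38, where the tested genes of its chromosome had a median log2 fold change of 0.07 and those between 60 and 70 Mb a median of 0.02.

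The sequences around annotated start sites of these genes were examined next. The RefSeq table on GRCm38.p6 had a window from 250 bases before to 50 bases after a start for 8 of the 9 members, all but Gli1. These windows were searched on both strands for the Gli consensus GACCACCCA, its 7-letter core ACCACCC (part of the consensus), the GC box GGGCGG and the TATA box TATAAA. The full consensus was in 0 of the 8 windows and in 0.253% of all 32851 windows of the table. The core was in 1, that of Gli2, and in 4.61% of all windows. GC boxes were in 6 of the 8 (Gli2, Hhip, Gli3, Gas1, Ptch1 and Sufu) and in 35.7% of all windows, and the TATA box was in 0 of the 8 and in 13.6% of all. The GC content of the 8 windows ran from 44.7% in Cdon to 76.3% in Ptch1 (median of all windows 52.7%), and the Ptch1 window held 47 CG dinucleotides against a median of 7. The 250 bases before the start are shown 5′ to 3′ on the gene's strand for Ptch1, the member that fell furthest, for Sufu, a member that rose, and for Gli2, the window with the Gli core. They lie at chr13:63565736-63565985 (minus), chr19:46396646-46396895 (plus) and chr1:119053620-119053869 (minus), and no annotated exon of GENCODE M21 overlaps them. Capitals mark the Gli core or a GC box, on either strand: in Gli2 the core begins 205 and the GC box 157 bases before the start, and the GC box begins 91 bases before it in Ptch1 and 10 in Sufu. The Ptch1, Cdon and Gli3 windows belong to starts inside the annotated spans of these genes, and the 250 bases before the start overlap annotated exons in Cdon (4 exons), Gli3 (1) and Gas1 (1). A match is a string of letters, and nothing here measures binding. With the consensus in 0.253% of all windows, its absence from 8 windows does not set the members apart. Sequence outside these windows was not searched.
Ptch1: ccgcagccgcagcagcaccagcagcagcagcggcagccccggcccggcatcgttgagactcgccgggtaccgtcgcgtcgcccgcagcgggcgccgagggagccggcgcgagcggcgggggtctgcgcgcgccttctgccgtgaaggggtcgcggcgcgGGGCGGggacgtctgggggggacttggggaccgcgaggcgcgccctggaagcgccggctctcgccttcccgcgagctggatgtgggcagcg
Sufu: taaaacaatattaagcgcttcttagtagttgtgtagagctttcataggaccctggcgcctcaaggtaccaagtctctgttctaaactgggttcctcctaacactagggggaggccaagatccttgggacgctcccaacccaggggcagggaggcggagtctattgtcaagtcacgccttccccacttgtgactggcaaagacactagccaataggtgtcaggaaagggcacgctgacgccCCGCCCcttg
Gli2: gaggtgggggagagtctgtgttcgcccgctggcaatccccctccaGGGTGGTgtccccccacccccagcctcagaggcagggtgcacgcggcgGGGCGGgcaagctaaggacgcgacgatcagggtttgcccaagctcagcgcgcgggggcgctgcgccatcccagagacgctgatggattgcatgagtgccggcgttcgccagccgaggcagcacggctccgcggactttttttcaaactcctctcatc

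Hhip, a membrane protein that binds and sequesters ligand and is itself a target of the pathway, was listed at 0 in 5 libraries and at 0.0109 FPKM in the unnumbered NNMT library. The length behind this value could not be recovered; with the longest annotated transcript, of 9074 bases, it would be 3.96 reads. With that length 3 reads, the limit that a count of 0 allows, would be 0.00849 to 0.0104 FPKM in the 5 libraries at 0, counting error only. Hhip was under the limit for testing, and in the fit without that limit its log2 fold change was 0.005 (limma adjusted p = 0.708). Its level gives no comparison between the groups.

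The coreceptors rose, and they were also the members that varied most between libraries of a group. Cdon, an immunoglobulin and fibronectin repeat protein that binds ligand, was at 5.03, 3.79 and 3.93 FPKM in control replicates 1, 2 and 3. The NNMT values were 7.75 FPKM (unnumbered library), 5.34 (replicate 2) and 7.585 (replicate 3). The lowest NNMT library lay just above the highest control. The mean went from 4.25 ± 0.677 to 6.89 ± 1.35 FPKM, 1.62-fold (log2 fold change 0.58, SE 0.126, limma adjusted p = 0.00218), the largest rise among the 8 tested members by log2 fold change. The tested genes of chromosome 9, where Cdon lies, had a median log2 fold change of 0.15.

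Gas1, a surface-anchored coreceptor first known as a growth arrest gene, was the most abundant member in both groups. It was at 193, 146 and 157 FPKM in control replicates 1, 2 and 3, and at 283, 187 and 242 FPKM in the unnumbered NNMT library and NNMT replicates 2 and 3. The groups overlapped, because NNMT replicate 2 lay below control replicate 1. The means were 165 ± 24.7 and 237 ± 48.2 FPKM, 1.43-fold apart (log2 fold change 0.51, SE 0.143, limma adjusted p = 0.0111; exact two-sided permutation p = 0.2). Without the unnumbered NNMT library the call was lost (log2 fold change 0.37, limma adjusted p = 0.0643), and without NNMT replicate 2 the log2 fold change was 0.67 (limma adjusted p = 0.00154). Gas1 lies on chromosome 13 like Ptch1, between the same 60 and 70 Mb, and moved the other way.

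Boc, the close relative of Cdon that is not among the 9, rose as well. It went from 2.61, 2.21 and 2.17 FPKM in control replicates 1, 2 and 3 to 4.61 (unnumbered NNMT library), 3.58 (NNMT replicate 2) and 4.61 (NNMT replicate 3). The groups did not overlap, and the rise was 1.83-fold (log2 fold change 0.66, SE 0.0919, limma adjusted p = 0.000124). Boc lies on chromosome 16, which as a whole was higher in NNMT cells (median 0.29), and the part of that in the rise was not tested. The summed level of Cdon and Boc was 1.40 ± 0.174 times that of Ptch1 in control and 3.86 ± 0.671 times in NNMT libraries (exact two-sided permutation p = 0.1).

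The spread of the coreceptors followed the same libraries. Control replicate 1 was 16.8% above its group mean for Gas1, 18.3% for Cdon and 12.1% for Boc. The deviation of NNMT replicate 2 from its group mean was -21.3% for Gas1, -22.5% for Cdon and -16.1% for Boc. The receptor gene Pdgfra, named after its values were seen, had the same order, at 19.5% above and -27.2%, and did not differ between the groups beyond its spread (36.9 ± 6.26 and 37.5 ± 8.85 FPKM, limma adjusted p = 0.973). Of the 8 tested members, 4 (Smo, Gli2, Cdon and Gas1) were highest in control replicate 1 among controls and lowest in NNMT replicate 2 among NNMT libraries, as were 20.3% of all tested genes. Ptch1 stayed within 3.5% of its group mean in all 6 libraries, though at its read counts this is no measure of how steady the gene is. The unnumbered NNMT library also lay above its group mean for Gas1 (19.3%), Cdon (12.4%) and Boc (8.0%). Control replicate 2 lay below its own mean for the same genes, at -11.8%, -10.8% and -5.2%. What sets these libraries apart was not tested.

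**Figure D2:**
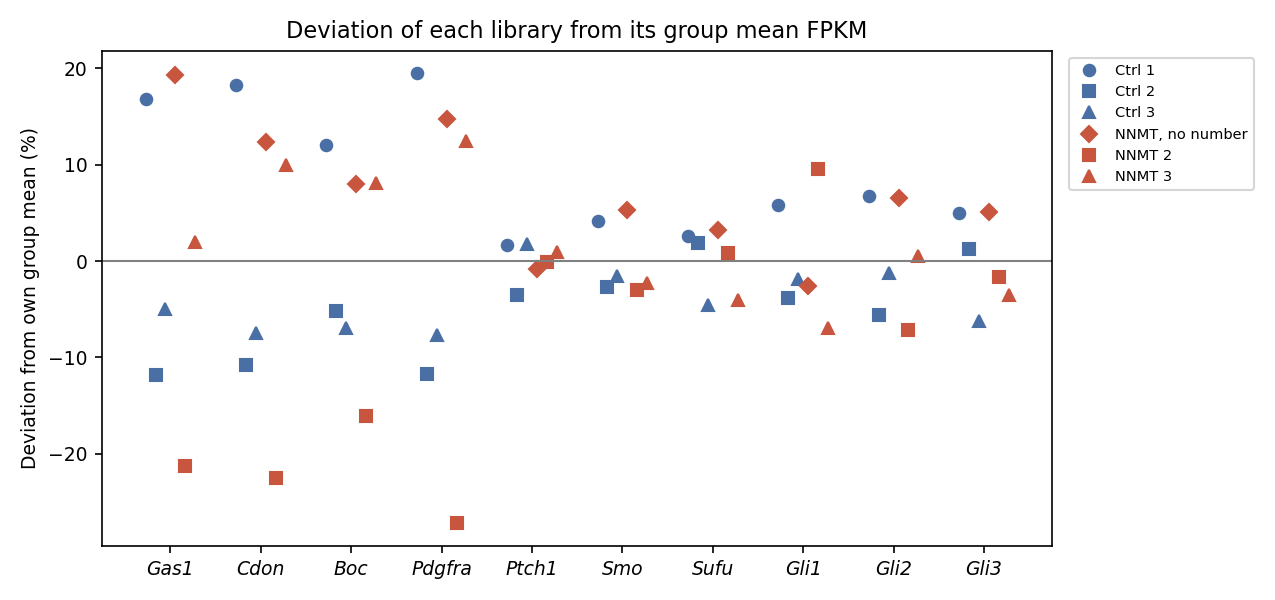
Deviation of each library from the mean FPKM of its own group, in percent (vertical axis), for the 8 tested members with Boc and Pdgfra. Control replicate 1 is the highest control and NNMT replicate 2 the lowest NNMT library for Gas1, Cdon, Boc and Pdgfra, while Ptch1 stays within 3.5% of its group mean.

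Smo, the membrane protein that Patched restrains, fell modestly from a high level. Control replicates 1, 2 and 3 had 89.0, 83.1 and 84.1 FPKM, against 73.4, 67.65 and 68.1 FPKM in the unnumbered NNMT library and NNMT replicates 2 and 3. All NNMT libraries lay below all controls. The means were 85.4 ± 3.16 and 69.7 ± 3.20 FPKM, 1.23-fold apart (log2 fold change -0.29, SE 0.0505, limma adjusted p = 0.000556), on 33735 control and 29493 NNMT reads. Since Ptch1 fell further, Smo was 18.1 ± 0.543 times Ptch1 in control and 24.1 ± 1.28 times in NNMT libraries (exact two-sided permutation p = 0.1). The genes of chromosome 6, where Smo lies, had a median log2 fold change of 0.07.

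Sufu, which binds Gli proteins and holds them in the cytoplasm, rose slightly. Its levels were 12.93, 12.85 and 12.03 FPKM in control replicates 1, 2 and 3 and 15.1, 14.7 and 14.0 FPKM in the unnumbered NNMT library and NNMT replicates 2 and 3. The groups did not overlap. The mean rose 1.16-fold, from 12.6 ± 0.502 to 14.6 ± 0.539 FPKM (log2 fold change 0.20, SE 0.0516, limma adjusted p = 0.00628). On chromosome 19, which holds Sufu, 49.7% of tested genes were higher and the median was 0.15, so that Sufu stood little above its chromosome.

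Of the Gli factors, Gli3 rose while Gli1 and Gli2 did not pass the test. Gli3, the main source of the Gli repressor, was at 6.72, 6.48 and 6.003 FPKM in control replicates 1, 2 and 3 and at 8.16, 7.64 and 7.50 FPKM in the unnumbered NNMT library and NNMT replicates 2 and 3. All 3 NNMT values exceeded all 3 control values. The rise was 1.21-fold, from 6.40 ± 0.366 to 7.77 ± 0.350 FPKM (log2 fold change 0.25, SE 0.0593, limma adjusted p = 0.00425). Gli3 lies on chromosome 13 like Ptch1 and Gas1, but between 10 and 20 Mb, where the median of tested genes was 0.09.

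Gli1, an activator whose transcript is widely used as a readout of the pathway, was the lowest of the tested members. It was at 1.40, 1.28 and 1.30 FPKM in control replicates 1, 2 and 3 (175, 182 and 151 reads). The NNMT values were 1.03 FPKM (unnumbered library, 151 reads), 1.16 (replicate 2, 150 reads) and 0.984 (replicate 3, 131 reads). Each NNMT library lay below each control. The means were 1.33 ± 0.0673 and 1.06 ± 0.0906 FPKM, a ratio of 0.797 of NNMT to control (log2 fold change -0.18, SE 0.0724, limma adjusted p = 0.0506). The adjusted p was 0.0291 with limma-voom on the recovered reads, where the log2 fold change was -0.33, and 0.0084 with quantile normalization, so that the call depends on the method. The values of Gli1 rest on few reads, and its annotated span overlaps that of Arhgap9 (0.37 FPKM) on the other strand, whose reads cannot be told apart if strand was not used in counting. Gli1 lies on chromosome 10, where the median log2 fold change was -0.04. Between 120 and 130 Mb, where Gli1 lies, it was -0.10.

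Gli2, an activator of the primary response, was at 3.72, 3.29 and 3.45 FPKM in control replicates 1, 2 and 3 and at 3.451, 3.01 and 3.25 FPKM in the unnumbered NNMT library and NNMT replicates 2 and 3. The groups overlapped, and the difference was within the spread (log2 fold change -0.08, SE 0.0681, limma adjusted p = 0.306). The median log2 fold change was also -0.08 on chromosome 1, where Gli2 lies. It was the same for the 9 tested genes between 110 and 120 Mb, Gli2 included. The summed level of the Gli factors was 11.2 ± 0.567 FPKM in control and 12.1 ± 0.505 in NNMT libraries (exact two-sided permutation p = 0.3). Within that sum, Gli3 made up 56.7%, 58.7% and 55.9% in control replicates 1, 2 and 3 and 64.6%, 64.7% and 63.9% in the unnumbered NNMT library and NNMT replicates 2 and 3. Gli1 made up 11.8 ± 0.280% in control and 8.78 ± 0.903% in NNMT libraries, and Gli2 31.1 ± 1.175% and 26.8 ± 1.195%. None of these shares overlapped between the groups (exact two-sided permutation p = 0.1 for each), and by level the groups did not overlap for 69.9% of all tested genes. As parts of the same sum the shares depend on each other and are not separate results. The share of Gli2 differed although its level overlapped. They are shares of transcript per length, which do not tell repressor from activator protein.

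**Figure D3:**
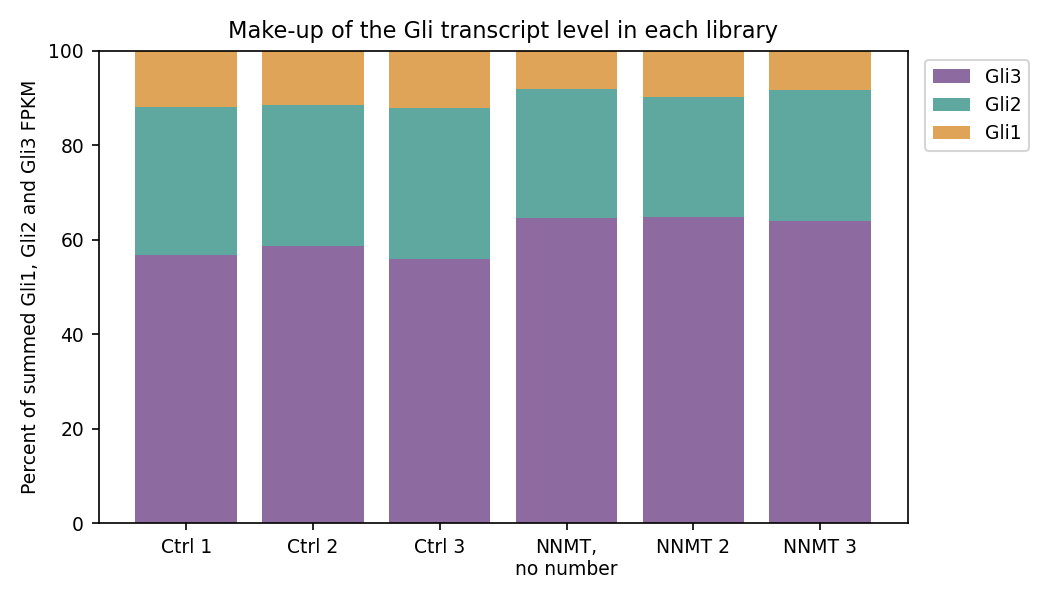
Share of Gli3, Gli2 and Gli1 in their summed FPKM (vertical axis, percent) in each library. Gli3 holds 55.9% to 58.7% in the control libraries and 63.9% to 64.7% in the NNMT libraries.

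By level, the order in control cells was Gas1, Smo, Sufu, Gli3, Ptch1, Cdon, Gli2, Gli1 and Hhip, and the ranges of Ptch1 and Cdon overlapped. In NNMT cells Cdon moved up to follow Gli3, with overlapping ranges, and Ptch1 moved down below Gli2. All other neighbours were separated in all libraries of the group. Levels of different genes depend on the lengths behind the FPKM, and for Ptch1 the length implied by the values was 4305 bases, which matches no single annotated transcript (the longest has 10383 bases). The same held for Gli1 (3665 implied, 4057 longest) and Cdon (7464 implied, 7503 longest). For Smo, Gli2, Gli3, Sufu and Gas1 the implied length was that of the longest annotated transcript.

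The ligands and the genes that make or release them were mostly silent. Shh was listed at 0 in all libraries, Ihh did not exceed 0.0335 FPKM and Dhh did not exceed 0.105 FPKM. Of the 10 genes of this list 2 were tested. Disp1, which releases lipid-bearing ligand from cells, rose 1.496-fold from 5.64 ± 0.268 to 8.44 ± 0.521 FPKM (log2 fold change 0.51, limma adjusted p = 4.22e-05). Hhat, which attaches palmitate to the ligand, was 1.148-fold lower (8.33 ± 0.135 to 7.25 ± 0.191 FPKM, limma adjusted p = 0.0103). Of the 10 other receptors and surface modifiers, 6 were tested, 2 rose and 2 fell, a share of 66.7% against 65.6% of all tested genes. Besides Boc the riser was the glypican Gpc6 (3.96-fold, 0.754 ± 0.115 to 2.98 ± 0.379 FPKM, limma adjusted p = 1.55e-06). Gpc6 averaged under 1 FPKM in control libraries and was tested only through its level in NNMT libraries. The fallers were Gpc4, an X-linked glypican (1.49-fold lower, to 22.9 ± 1.58 FPKM, limma adjusted p = 1.36e-05), and Mgrn1, a ubiquitin ligase that acts on Smo (1.13-fold lower, limma adjusted p = 0.0217).

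Between Smo and the Gli proteins, transcripts moved in both directions. Of 27 genes listed here 26 were tested, 7 rose, 6 fell and 13 did not pass, and the median log2 fold change was 0.03. As many changed as did not, a smaller share than the 65.6% of all tested genes, and this difference was not tested. The split depends on scaling: 7 rose and 9 fell with quantile normalization or median-of-ratios scaling, where the median was 0.02 or -0.01. The risers by smallest p were Gsk3b, Arl13b, Evc2 and Tulp3. The kinase Gsk3b, which phosphorylates Gli proteins for processing, rose 1.69-fold (to 23.5 ± 1.35 FPKM, limma adjusted p = 2.27e-06). The ciliary GTPase Arl13b rose 1.54-fold (to 7.70 ± 0.553 FPKM, limma adjusted p = 3.02e-05). Evc2, which relays Smo activity at the base of the cilium, rose 1.37-fold (limma adjusted p = 9.82e-05). Evc, of the same list and named after its values were seen, was 1.18-fold lower (18.8 ± 1.62 to 15.9 ± 0.445 FPKM, limma adjusted p = 0.00824). Tulp3, which brings receptors into the cilium, rose 1.23-fold (limma adjusted p = 0.000403). Gsk3b and Arl13b lie on chromosome 16. Kif7, the kinesin that organises Gli at the tip of the cilium, rose 1.26-fold (limma adjusted p = 0.0106), and Gpr161, a ciliary receptor that restrains the pathway, was 1.35-fold lower (7.39 ± 0.383 to 5.48 ± 0.378 FPKM, limma adjusted p = 0.000445); both are named after their values were seen.

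Among the transport genes of the primary cilium more rose than fell. Of 24 tested, 12 rose, 5 fell and 7 did not pass, with a median log2 fold change of 0.18 against 0.03 for all tested genes. Under quantile normalization and median-of-ratios scaling the counts were again 12 and 5, and with limma-voom 13 and 5. The share that changed, 70.8%, was near the background of 65.6%. Of the calls in the list 70.6% were higher, against 53.3% of the calls among all tested genes, and this difference was not tested. Ift172, a subunit of the complex that moves cargo outward, went from 6.46 ± 0.257 to 15.85 ± 0.979 FPKM (2.46-fold, limma adjusted p = 9.38e-08). Ift57 on chromosome 16 rose 1.89-fold, Dync2li1, a light intermediate chain of the returning dynein motor, 1.72-fold, and Ift81 1.84-fold (limma adjusted p = 8.04e-07, 5.38e-06 and 6e-06). Ift172 and Ift81 lie on chromosome 5, where the median log2 fold change was 0.16. The fallers, named after their values were seen, were Ift74, Hspb11, Ift43, Ttc21b and Kifap3. Ift74, the binding partner of Ift81, was 1.62-fold lower (22.3 ± 0.413 to 13.8 ± 2.26 FPKM) and lies with Hspb11 on chromosome 4, where the median was -0.23.

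Genes reported elsewhere to respond to hedgehog signalling did not share a direction. Of 23 listed, 17 were tested, 7 rose and 5 fell (70.6% changed, near the 65.6% of all tested genes), and the median log2 fold change was -0.02 (7 rose and 7 fell with quantile normalization, with a median of -0.05). Foxf1, a transcription factor of visceral mesenchyme, rose from 0.992 ± 0.142 to 6.73 ± 0.657 FPKM (6.79-fold, limma adjusted p = 3.19e-08). Sfrp1, a secreted Wnt inhibitor, went from 0.521 ± 0.104 to 10.8 ± 2.30 FPKM (log2 fold change 2.94, limma adjusted p = 3.95e-08). Foxf1, Sfrp1 and Tgfb2, all counted among the risers, averaged under 1 FPKM in control and were tested only through their NNMT levels. The growth factor Igf2 went from 20.4 ± 2.56 to 2.675 ± 0.812 FPKM (log2 fold change -2.56, limma adjusted p = 2.61e-07). Foxc2, a forkhead factor of mesoderm, was 2.07-fold lower (14.1 ± 1.07 to 6.82 ± 0.4295 FPKM, limma adjusted p = 8.89e-07). Ccnd1, cyclin D1, was 1.995-fold lower (65.5 ± 1.99 to 32.8 ± 4.43 FPKM, limma adjusted p = 2.66e-06), while Ccnd2 rose 1.39-fold and Mycn 1.48-fold (limma adjusted p = 1.72e-05 and 0.000273); Ccnd1, Ccnd2 and Mycn were picked with their values in view. All of these genes have other regulators.

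**Figure D4:**
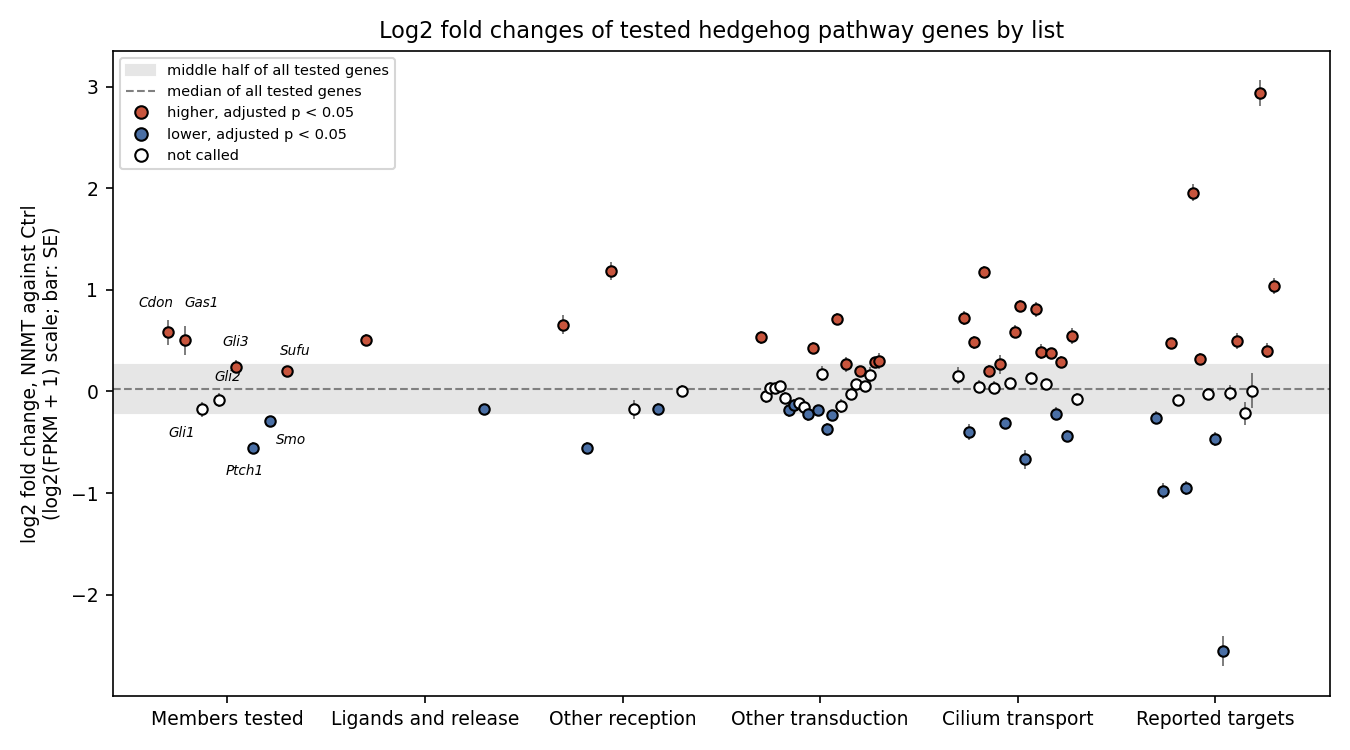
Log2 fold change of NNMT against control (vertical axis, log2(FPKM + 1) scale, bars SE) for the tested genes of each list, coloured by call, with the median (0.03) and the middle of the distribution of all tested genes (-0.22 to 0.26) in grey. Each list holds genes on both sides of 0, and the cilium list has 12 higher against 5 lower.

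The genes whose values followed Ptch1 most closely over the 6 libraries, by Pearson correlation of log2(FPKM + 1) among 10255 other tested protein-coding genes, were Agtr2, Etv1 and Rcan2 (r = 0.9996 for each). Their log2 fold changes differed, at -2.997, -1.10 and -1.247. As many as 1641 genes (16%) had r above 0.95 with Ptch1, since the libraries form 2 groups and most genes differ between them. For Gli1 the closest were Ipo8 (r = 0.9978), 2310033P09Rik (0.9956) and Fkbp2 (0.9943), and 147 genes (1.43%) had r above 0.95. The points of these correlations share libraries and depth.

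Across the alternative settings each of the 8 tested members kept its direction. The plot of log2 fold changes by setting shows Ptch1 between -0.70 and -0.54, Smo between -0.33 and -0.26, Cdon between 0.50 and 0.73, Gli3 between 0.20 and 0.28 and Sufu between 0.16 and 0.23, all past the threshold of 0.05 in every setting in which they were tested. Gas1 lay between 0.37 and 0.67 and Gli1 between -0.33 and -0.145, on both sides of the threshold.

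**Figure D5:**
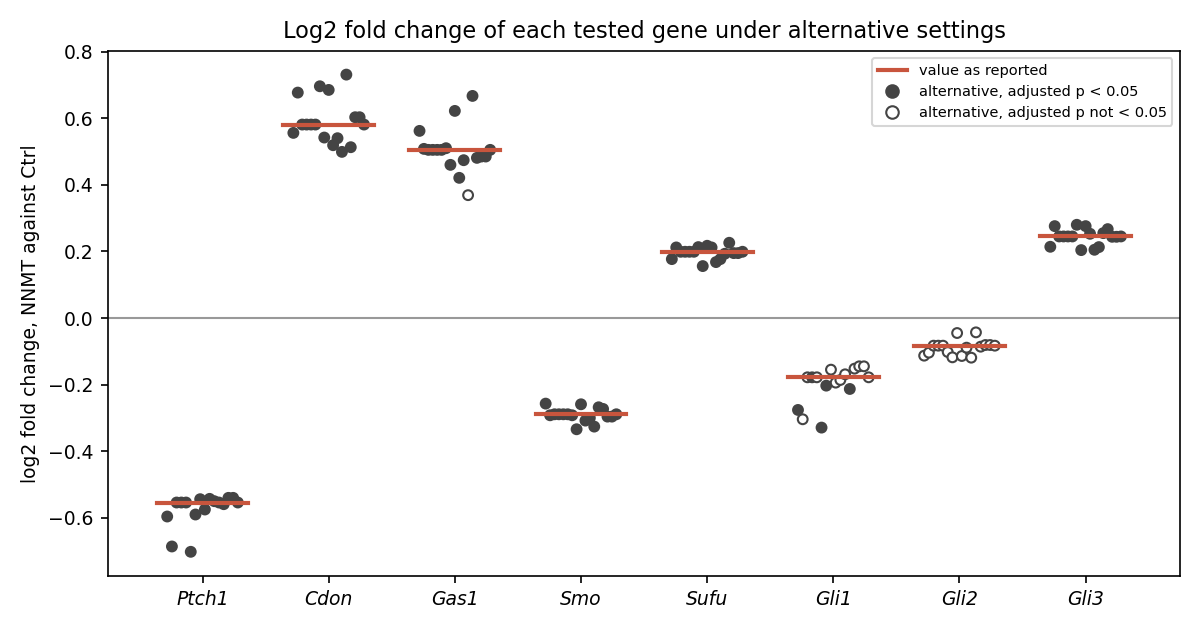
Log2 fold change of each tested gene (vertical axis) as reported (line) and under each alternative setting (points), filled where the adjusted p is under 0.05. Points of Ptch1, Smo, Cdon, Gli3 and Sufu are all filled, those of Gli2 are all open, and Gas1 and Gli1 have some of each.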

How the data were processed

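RNA of 3T3 cells was sequenced in 6 libraries, 3 per group. Per the submitters' processing notes, CASAVA and STAR 2.5 were used with genome build mm10. For the read counter, the annotation and the use of strand, the labels and header name nothing (not given in the sources used). The FPKM values were made by the authors from reads and deposited as 1 table, whose header states no unit: FPKM was inferred here. Of the 20528 genes above 0, 71.1% gave whole reads, within 0.01, with the length of their longest GENCODE M21 transcript; for the other 5931 genes a length was fitted to the values, which for genes with few values above 0 determines neither length nor reads. Reads recovered came to 99.86% or 99.87% of the implied library totals; intervals and floors made from them cover counting error only. GRCm38 is the assembly that mm10 names, and 34490 of 35275 identifiers were paired with a symbol.

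The test was limma 3.58.1 (R 4.3.3) on log2(FPKM + 1) for genes averaging 1 FPKM or more (trend, robust moderation, Benjamini-Hochberg over all tested genes). The design allowed for counts or normalized values, and the test for the latter was used. Folds are ratios of group means, given where each group had at least 10 reads. On simulated data with 10879 genes tested, 70% of 50 genes changed 1.25-fold and 96% of 50 changed 1.5-fold were recovered. Whether these rates hold for the members was not tested. The coefficient of variation was 14.95% in control and 20.35% in NNMT libraries for Gas1, and 15.94% and 19.51% for Cdon. The medians over all tested genes were 4.33% and 6.05%. All 9 members are named, and from each further list up to 4 genes with the smallest adjusted p. The members and lists were chosen with earlier results of these data known. Alternatives were quantile normalization, median-of-ratios scaling, a pseudocount of 0.1, no filter, a filter at a mean of 5 FPKM, limma without trend or without robust moderation, limma-voom on recovered reads, an adjusted p under 0.01, leaving out each library and replicate blocks. The labels give no batch or date.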

Additional observations from a re-analysis of the deposited data

How the results depend on the processing

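The count of called members (6, of which 4 higher and 2 lower) stayed between 5 and 7 under all alternatives. Only the count of lower members moved by more than 1.5 times, to 1, with a filter at a mean of 5 FPKM, which left Ptch1, Gli1 and Gli2 untested. Leaving out each library in turn gave 5 to 7 called, 3 to 4 higher and 2 to 3 lower. Over the single members, 134 values kept their side of the threshold, 5 passed newly (all Gli1, log2 fold change -0.33 to -0.18, limma adjusted p = 0.0084 to 0.0314) and 2 were lost (both Gas1: without the unnumbered NNMT library, and at an adjusted p under 0.01, where it stood at 0.0111). No direction reversed. The cause of these changes was not tested.

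Leaving out a library leaves 2 in its group. Among all tested genes, 53.3% of the calls were higher as reported, 50.3% with quantile normalization and 47.2% with median-of-ratios scaling.

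By the numbers in the table, a replicate block could be fitted over replicates 2 and 3, which both groups carry. It called 6 members, 4 higher and 2 lower, as did the same 4 libraries without the block (a setting chosen after seeing the data), and 7110 against 6629 genes in all. Deviations of same-numbered libraries correlated at 0.212 and 0.11 across genes, and those of control replicate 1 and the unnumbered NNMT library at 0.314; control replicate 3 and NNMT replicate 2 also correlated at 0.212. The titles number the NNMT samples 1 to 3, so the unnumbered library would be replicate 1 by elimination, which its column does not state. A block over all 6 libraries on that reading was also chosen after seeing the data. It again called 6 members, 4 higher and 2 lower, changed no call of the 8 members and called 7549 genes in all. With it the limma adjusted p was 2.82e-06 for Gas1 and 1.7e-05 for Cdon, against 0.0111 and 0.00218 as reported. Depth limits Gli1, with 131 to 182 reads per library, and Hhip most.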

Other observations

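A list of 7 genes held relatives of Patched and Dispatched outside hedgehog reception together with Npc2, a soluble lysosomal protein that hands cholesterol to the Patched relative Npc1. Of the 3 tested 2 changed, 66.7% against 65.6% of all tested genes. Npc2 was 1.498-fold lower (97.1 ± 3.43 to 64.8 ± 1.497 FPKM, limma adjusted p = 2.44e-06), and Npc1 rose 1.16-fold (4.78 ± 0.0713 to 5.56 ± 0.451 FPKM, limma adjusted p = 0.0306), a call that was lost with quantile normalization and with median-of-ratios scaling. Ptchd4 did not pass (limma adjusted p = 0.652). Ptchd1, which is X-linked and was too low to test, stood at 0.307 ± 0.000979 FPKM in control and 0.0388 ± 0.0263 FPKM in NNMT libraries. These levels rest on 29, 33 and 27 control reads and on 5, 6 and 1 NNMT reads. At such counts the small control SD is no measure of how steady Ptchd1 is. Hsd11b1, a steroid enzyme among the reported targets that was also under the limit for testing, went from 0.0182 ± 0.00188 to 1.28 ± 0.194 FPKM. Its control level was 1 recovered read in each library, so the control SD measures no spread of the gene. Disp2, a relative of Disp1, stood at 0.151 ± 0.0528 and 0.541 ± 0.119 FPKM.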
